A study of Mus musculus with 10 samples.

Results

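The hypoxia-inducible factor (HIF) pathway was followed in bulk RNA of dissected mouse pituitary intermediate lobe (IL) through 10 genes: the oxygen-labile subunits Hif1a and Epas1, their negative regulators Egln1, Egln3 and Vhl, and the HIF targets Ankrd37, Car9, Ndrg1, Ddit4 and Adm, none of which is a glycolytic enzyme. They were taken by name from the 29527 genes of the table, and all 10 were found. The table holds 4 wild-type (WT), 3 p27-/- and 3 p27-/-;Sox2+/- samples from mice of 2 to 3 months. The p27-/- mice lack both copies of Cdkn1b, the gene of the cell cycle inhibitor P27, in every cell of the body, and the p27-/-;Sox2+/- mice lack in addition 1 copy of Sox2, the gene of a stem cell transcription factor, also in every cell, and all were kept on a mixed background. No Sox2+/- sample with intact p27 was among these samples, so that the effect of the Sox2 copy could be read only on the p27-/- background, and the same 4 WT samples served as control for both mutants. The study asked with these samples which changes in p27-/- IL, a tissue that later forms tumors, depend on the dose of Sox2. The labels number the samples of a genotype but do not say that each came from a separate mouse, which the p-values assume.

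HIF is a pair of proteins, an oxygen-labile alpha subunit (HIF-1 alpha from Hif1a or HIF-2 alpha from Epas1) and the stable partner ARNT. When oxygen is plentiful, the prolyl hydroxylases encoded by Egln1 and Egln3 mark the alpha subunit, and VHL, part of a ubiquitin ligase, sends it to degradation. When oxygen is scarce, the pair accumulates, binds a short core sequence near its target genes and raises their transcription, so that most control of HIF lies in protein stability, which RNA does not show.

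Values are log2 of normalised expression, and a difference of 1 is a doubling on that scale. The transformation that gave them is not named, so that the folds given here may differ from ratios of counts. Column means lay between 4.35 and 4.37 and correlations between samples across genes between 0.981 and 0.995. Depth and counting error are unknown from the table, and the small number of samples also limits the precision. The prohormone gene Pomc, expressed by melanotrophs of the IL and also by corticotrophs of the anterior lobe, had values from 18.0 to 19.0. Cdkn1b transcript was still present, with values from 8.39 to 8.85 in WT, from 8.04 to 8.27 in p27-/- and from 7.73 to 8.10 in p27-/-;Sox2+/- samples, and Sox2 ranged from 7.34 to 7.75, from 7.08 to 7.45 and from 6.88 to 7.07. limma was run on the 17268 genes whose mean reached 10 on the linear scale, and a gene was called at a Benjamini-Hochberg adjusted p under 0.05 over all of them. Of the 10 HIF genes 9 passed this filter. Car9, which encodes a membrane carbonic anhydrase and is a widely used hypoxia marker, did not.

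In p27-/- IL, 3 HIF genes differed from WT. Ankrd37 was higher, with 1.52 times the WT level, while Epas1 was lower, at 0.685 of the WT level, and Ndrg1 was lower, at 0.696. In p27-/-;Sox2+/- IL none of the 9 tested genes passed the threshold against WT in limma (2 had an unadjusted p under 0.05, Egln3 and Adm), and none differed between the mutants (3 had an unadjusted p under 0.05, Epas1, Ankrd37 and Ndrg1). Among all tested genes 7.78% were called in p27-/- and 2.71% in p27-/-;Sox2+/- when each was set against WT, and 0.145% between the mutants. In p27-/- against WT 6 of the 9 HIF genes had an unadjusted p under 0.05 in limma. Of all 17268 tested genes, 4155 had such a p in p27-/- and 3075 in p27-/-;Sox2+/- against WT. Between the mutants 1148 did, and these are the background of all such counts below. The median log2 fold change of the 9 genes was 0.01 in p27-/- and 0.02 in p27-/-;Sox2+/- against WT, and -0.12 between the mutants, beside 0.0087, 0.0098 and -0.0044 over all tested genes. The values of each gene in each sample show which of these differences exceeded the spread within a genotype.

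**Figure D1:**
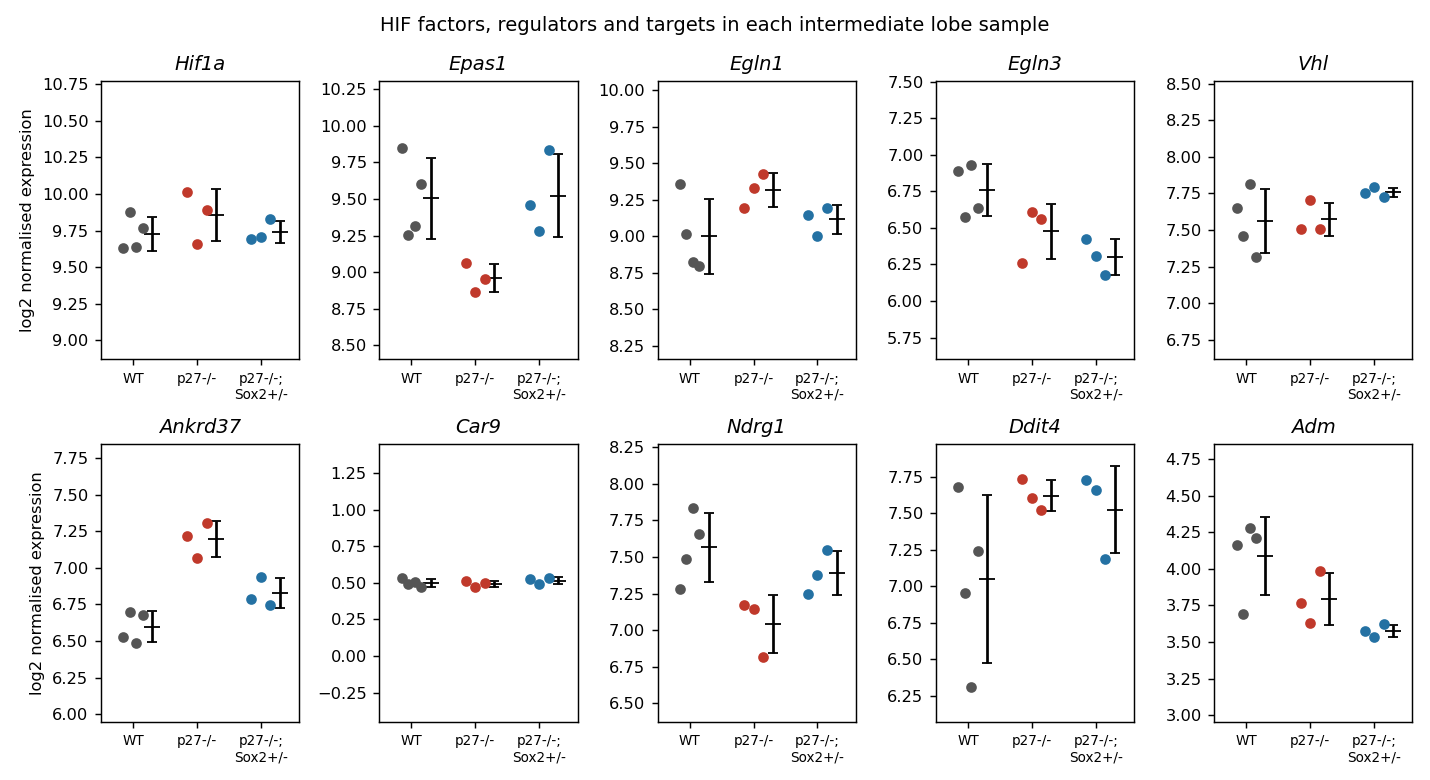
Log2 normalised expression (vertical axis, 1 panel per gene, each spanning the same number of log2 units) of the 10 HIF genes in each WT (grey), p27-/- (red) and p27-/-;Sox2+/- (blue) sample, with the mean and SD as bars. The p27-/- samples sit above the others for Ankrd37 and below the others for Epas1 and Ndrg1, and Car9 lies near 0.5 in every sample.

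Ankrd37, an ankyrin repeat protein gene known as a direct HIF-1 target, lies on chromosome 8 of GRCm38.p6 from 45996908 to 46000414 (ENSMUSG00000050914). Its values were 6.52, 6.70, 6.49 and 6.68 in WT, 7.22, 7.06 and 7.31 in p27-/- and 6.79, 6.94 and 6.75 in p27-/-;Sox2+/- samples. The genotypes formed a complete order without overlap, with WT lowest, p27-/-;Sox2+/- between and p27-/- highest. Relative to WT, the estimate in p27-/- was 0.60 on the log2 scale (standard error 0.11, 95% interval 0.36 to 0.84, limma adjusted p = 0.00745) and p27-/-;Sox2+/- one of 0.23 (0.11, -0.01 to 0.47, adjusted p = 0.309), and p27-/-;Sox2+/- was below p27-/- by a log2 difference of -0.37 (interval -0.63 to -0.11, adjusted p = 0.429). The call in p27-/- held in all 9 other settings and with each of the 10 samples left out, with adjusted p-values up to 0.0497. Ankrd37 overlaps Ufsp2, which encodes a protease of the ubiquitin-like modifier UFM1, and since the reads were counted without strand, reads of the overlap cannot be told apart. Ufsp2, looked up after the Ankrd37 values were seen, had values from 9.03 to 9.21 in WT, from 9.24 to 9.35 in p27-/- and from 9.06 to 9.27 in p27-/-;Sox2+/- samples, and in p27-/- its change was 0.18 on the log2 scale (adjusted p = 0.221). The summed level of 7 cell cycle markers, on the log2 scale, had the same order of genotypes, 8.27 to 9.13 in WT, 9.31 to 9.79 in p27-/-;Sox2+/- and 10.1 to 10.7 in p27-/- samples, and all 7 markers were called higher in p27-/- than in WT. All 7 had positive estimates in p27-/-;Sox2+/- against WT too, with 2 called (Mki67 and Top2a) and 6 at an unadjusted p under 0.05. Its part in the difference was not tested.

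The hypoxia response element core is ACGTG or GCGTG, and both strands of the 250 bases before the RefSeq start in GRCm38.p6 were searched for it. Such windows were at hand for 8 of the 10 genes, not for Epas1 and Ndrg1. The core stood at 4 positions before Ankrd37, 3 before Hif1a, 2 each before Egln1, Ddit4 and Adm, 1 each before Egln3 and Car9 and 0 before Vhl. Of 32851 RefSeq starts, 38.6% hold either form (16.6% ACGTG and 28.2% GCGTG) and 6.58% hold at least 3 positions. The 2 central matches of Ankrd37 are the same letters read on opposite strands and share bases, as do 2 of the 3 of Hif1a. Below are the windows of Ankrd37, the gene that rose and has the most matches, of Egln3 and Adm, the genes with the lowest p-values in p27-/-;Sox2+/- IL, and of Car9, the gene near the floor of the table. They are the windows chr8:45999851-46000100 on the minus strand, chr12:54203875-54204124 on the minus strand, chr7:110627407-110627656 on the plus strand and chr4:43506776-43507025 on the plus strand, written 5′ to 3′ along the gene, with matches in capitals (CACGT and CACGC are the core on the other strand). The windows of Ankrd37 and Hif1a lie inside the annotated spans of these genes, which begin further upstream.
Ankrd37: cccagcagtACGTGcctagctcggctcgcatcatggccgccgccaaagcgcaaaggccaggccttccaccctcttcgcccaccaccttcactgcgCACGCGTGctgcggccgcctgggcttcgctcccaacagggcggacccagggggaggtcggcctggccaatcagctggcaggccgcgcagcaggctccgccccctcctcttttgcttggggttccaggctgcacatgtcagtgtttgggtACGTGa
Egln3: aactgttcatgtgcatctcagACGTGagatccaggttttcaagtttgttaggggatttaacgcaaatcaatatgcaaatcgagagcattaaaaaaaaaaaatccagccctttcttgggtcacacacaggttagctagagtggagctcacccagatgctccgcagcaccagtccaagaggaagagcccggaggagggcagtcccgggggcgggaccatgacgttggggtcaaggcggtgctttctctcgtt
Adm: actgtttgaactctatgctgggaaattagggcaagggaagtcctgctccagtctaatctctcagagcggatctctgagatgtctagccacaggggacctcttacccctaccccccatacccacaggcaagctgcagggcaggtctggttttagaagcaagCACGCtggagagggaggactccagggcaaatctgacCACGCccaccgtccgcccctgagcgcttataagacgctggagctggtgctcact
Car9: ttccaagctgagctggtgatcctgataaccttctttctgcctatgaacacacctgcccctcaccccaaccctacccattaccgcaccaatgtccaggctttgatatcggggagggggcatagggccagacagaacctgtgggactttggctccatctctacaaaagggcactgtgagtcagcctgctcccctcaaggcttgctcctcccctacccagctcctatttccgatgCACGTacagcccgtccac
A match is a stretch of letters and not a measured binding site.

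**Figure D2:**
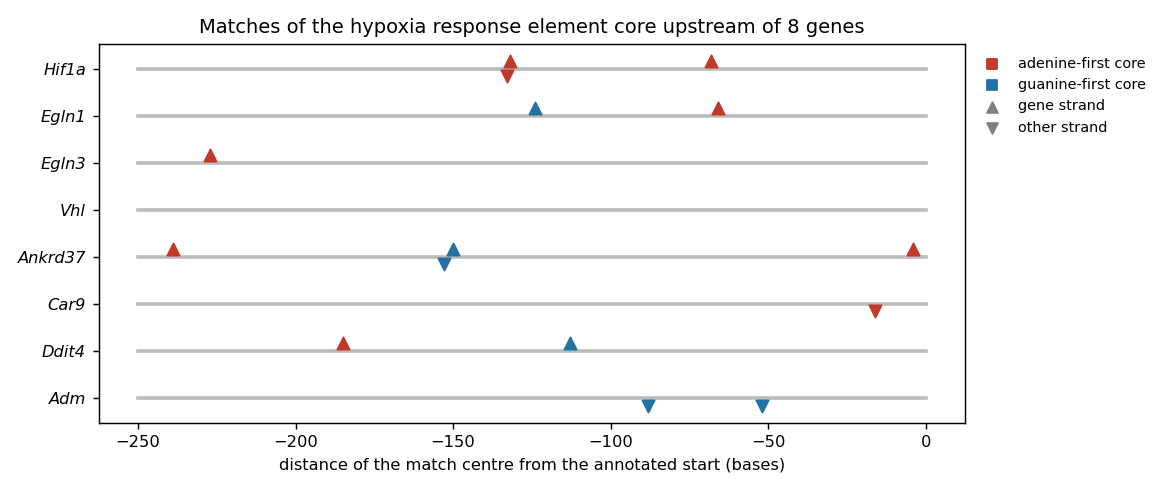
Positions of the hypoxia response element core in the 250 bases before the start of 8 HIF genes, as distance of the centre of the match from the start in bases (horizontal axis), in red for the form that begins with adenine and blue for the form that begins with guanine, above the line on the strand of the gene and below it on the other strand. Ankrd37 has 4 matches, 1 of them next to the start, and Vhl has 0.

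Of the alpha subunits, Epas1 moved and Hif1a did not pass the test. Hif1a (chromosome 12, 73901324 to 73947554) had values of 9.63, 9.88, 9.64 and 9.77 in WT, 10.02, 9.66 and 9.89 in p27-/- and 9.69, 9.70 and 9.83 in p27-/-;Sox2+/- samples. The genotypes overlapped in every comparison. Its log2 fold change was 0.13 in p27-/- (95% interval -0.08 to 0.34, limma adjusted p = 0.463) and 0.01 in p27-/-;Sox2+/- (-0.20 to 0.23, adjusted p = 0.962). Changes within these intervals were not excluded.

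Epas1 (ENSMUSG00000024140, chromosome 17, 86753864 to 86833410), which encodes HIF-2 alpha and is known for high expression in blood vessel endothelium, had values of 9.85, 9.25, 9.31 and 9.60 in WT, 9.06, 8.87 and 8.95 in p27-/- and 9.46, 9.28 and 9.84 in p27-/-;Sox2+/- samples. All p27-/- samples were below all others, while the WT and p27-/-;Sox2+/- samples spread over the same range. The log2 fold change was -0.55 in p27-/- against WT (standard error 0.15, interval -0.87 to -0.23, limma adjusted p = 0.0412) and 0.02 in p27-/-;Sox2+/- against WT (interval -0.30 to 0.34, adjusted p = 0.964). Between the mutants it was 0.56 (interval 0.22 to 0.91), which did not pass the threshold (adjusted p = 0.302), so that a difference between the mutants was not shown. The call in p27-/- was close to the threshold and was lost with 6 of the 10 samples left out in turn, at adjusted p = 0.0593 without WT replicate 1, 0.0976 without WT replicate 4, 0.0855, 0.138 and 0.128 without p27-/- replicates 1, 2 and 3 and 0.054 without p27-/-;Sox2+/- replicate 1. It was also lost without the filter on low values (0.0769), without the trend (0.0522) and with the replicate number as a block (0.0828). The block also takes WT replicate 4 out of the comparison, since no other genotype has that number.

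Endothelial markers were examined beside Epas1, and 1 of the 9 tested was called in p27-/- IL, where 7.78% of all tested genes were. The summed level of 10 endothelial markers, on the log2 scale, was 9.27, 9.04, 8.93 and 9.29 in WT, 8.73, 8.56 and 8.88 in p27-/- and 8.81, 8.66 and 9.07 in p27-/-;Sox2+/- samples. The sum was lower in every p27-/- than in every WT sample. Within a genotype, the sample with the highest Epas1 also had the highest sum in p27-/-;Sox2+/- but not in WT or p27-/-. In WT, replicates 1 and 4 were the 2 highest for both. The called marker Kdr, the receptor of vascular endothelial growth factor A, was lower in p27-/- (log2 fold change -0.83, limma adjusted p = 0.00966). Kdr was also lower in p27-/-;Sox2+/- against WT (-0.67, limma adjusted p = 0.0459). All 9 tested markers had negative log2 fold changes in p27-/- and 8 of 9 in p27-/-;Sox2+/-, each against WT. Cldn5, a defining endothelial marker, was near the floor, from 1.75 to 1.95. The summed level of 9 mural cell and fibroblast markers ran from 11.7 to 12.2 in WT, from 11.05 to 11.9 in p27-/- and from 11.1 to 11.8 in p27-/-;Sox2+/- samples. Of the 8 tested, 2 were called lower in p27-/-, Pdgfra (limma adjusted p = 0.0459) and Lum (0.049998, at the threshold). In p27-/-, 6 of the 8 had negative and 2 positive log2 fold changes. In 2 of the 3 p27-/-;Sox2+/- samples the endothelial sum lay below all WT samples, and Epas1 lay within the WT range in all 3. In bulk RNA fewer cells of a type and less RNA per cell cannot be told apart. The part of endothelial, mural and fibroblast cells in the Epas1 difference was not tested.

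**Figure D3:**
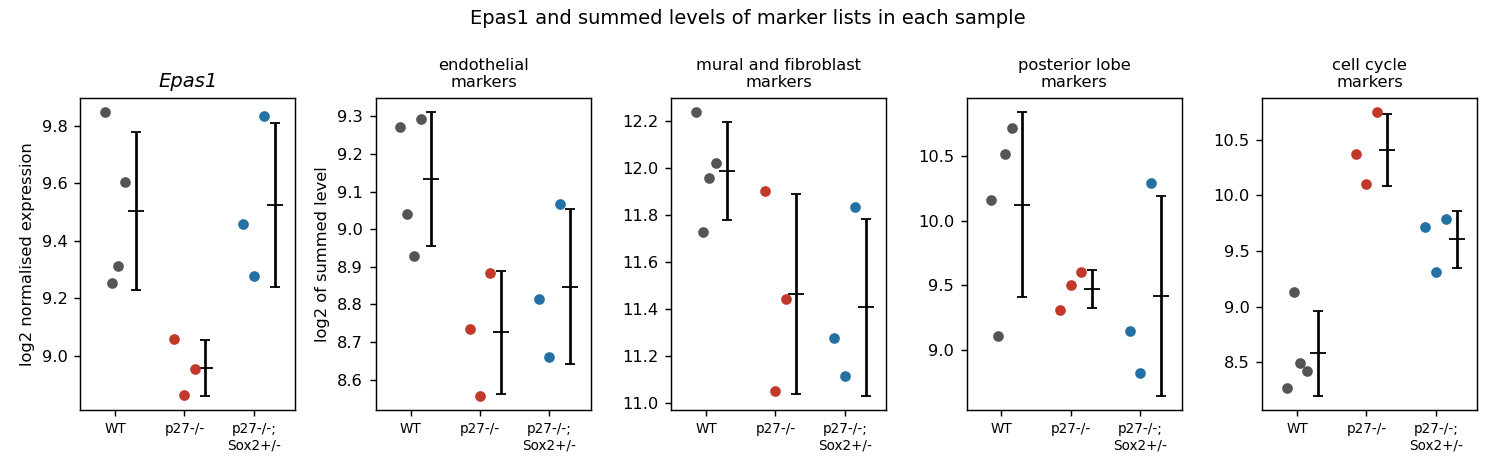
Epas1 and the summed levels of endothelial, mural and fibroblast, posterior lobe and cell cycle markers (vertical axes, log2 units, each panel with its own range) in each WT (grey), p27-/- (red) and p27-/-;Sox2+/- (blue) sample, with the mean and SD as bars. Epas1 is low in the p27-/- samples alone, and the endothelial sum is below all WT samples in p27-/- while the p27-/-;Sox2+/- samples lie between 8.66 and 9.07.

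The genes whose values across the 10 samples were most like Epas1, by Pearson's r, were F3 (tissue factor, 0.97), Antxr2 (an anthrax toxin receptor, 0.96) and Arhgef6 (0.93). Those most like Ankrd37 were Elavl4 (a neuronal RNA-binding protein, 0.97), Myt1 (a zinc finger factor, 0.96) and Ect2 (a cytokinesis factor, 0.96). Those most like Ndrg1 were Lrp1b (0.94), Rabgap1l (0.94) and Fbxl4 (0.94). These r-values were the highest among the 14854 tested genes with a symbol and include the differences between genotypes.

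The negative regulators had different patterns. Egln1 (chromosome 8, 124908587 to 124949254), the main oxygen-sensing prolyl hydroxylase, had values of 9.35, 9.02, 8.83 and 8.80 in WT, 9.19, 9.33 and 9.42 in p27-/- and 9.15, 9.004 and 9.20 in p27-/-;Sox2+/- samples. WT replicate 1 lay among the p27-/- samples and the other 3 WT samples below them. The log2 fold change in p27-/- was 0.31 (95% interval 0.05 to 0.58, limma adjusted p = 0.139), and without WT replicate 1 it was 0.43 and passed the threshold (adjusted p = 0.0162). It also passed with array weights, which give noisy samples less weight (0.37, adjusted p = 0.049). The change in p27-/-;Sox2+/- was 0.12 (interval -0.15 to 0.38, adjusted p = 0.673).

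Egln3 (chromosome 12, 54178981 to 54203874), a prolyl hydroxylase whose own gene is a HIF target, had values of 6.89, 6.57, 6.93 and 6.64 in WT, 6.26, 6.61 and 6.56 in p27-/- and 6.42, 6.31 and 6.18 in p27-/-;Sox2+/- samples. All p27-/-;Sox2+/- samples were below all WT samples, and the p27-/- samples overlapped with both. Estimates on the log2 scale were -0.46 in p27-/-;Sox2+/- (interval -0.74 to -0.17, adjusted p = 0.0892) and -0.28 in p27-/- (-0.57 to 0.00, adjusted p = 0.216), neither past the threshold. Egln1 thus had a positive and Egln3 a negative estimate in p27-/- IL.

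Vhl (chromosome 6, 113623994 to 113631634) had values of 7.65, 7.46, 7.82 and 7.32 in WT, 7.51, 7.70 and 7.51 in p27-/- and 7.75, 7.79 and 7.73 in p27-/-;Sox2+/- samples. The p27-/-;Sox2+/- samples lay above the p27-/- samples and within the WT range. Its log2 fold change was 0.01 in p27-/- (interval -0.25 to 0.27, limma adjusted p = 0.968), 0.20 in p27-/-;Sox2+/- (-0.06 to 0.46, adjusted p = 0.42) and 0.19 between the mutants (adjusted p = 0.936). Vhl lies 21.3 Mb from the deleted Cdkn1b on the same chromosome.

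Among the targets, Ndrg1 (ENSMUSG00000005125, chromosome 15, 66929318 to 66969641), a stress-induced gene also known for its role in myelinating cells, had values of 7.28, 7.49, 7.83 and 7.66 in WT, 7.17, 7.14 and 6.82 in p27-/- and 7.25, 7.38 and 7.54 in p27-/-;Sox2+/- samples. All p27-/- samples were below all other samples, the nearest WT sample being replicate 1. The log2 fold change was -0.52 in p27-/- against WT (standard error 0.14, interval -0.83 to -0.22, limma adjusted p = 0.0397), -0.18 in p27-/-;Sox2+/- against WT (interval -0.48 to 0.13, adjusted p = 0.555) and 0.35 between the mutants (0.02 to 0.67, adjusted p = 0.694). Like Epas1, and unlike Ankrd37, Ndrg1 was lower in p27-/- IL. The call was lost with 6 of the 10 samples left out in turn, at adjusted p = 0.0877 without WT replicate 3, 0.0951 without WT replicate 4, 0.0724, 0.0818 and 0.18 without p27-/- replicates 1, 2 and 3 and 0.0596 without p27-/-;Sox2+/- replicate 2. It was also lost without the filter on low values (0.0638), in a fit of the compared genotypes alone (0.0669), with Xist as a covariate for sex (0.0521) and with the replicate block (0.122). The summed level of 8 posterior lobe markers, from tissue that adjoins the IL, ran from 9.11 to 10.7 in WT, from 9.31 to 9.60 in p27-/- and from 8.82 to 10.3 in p27-/-;Sox2+/- samples, with none of the 7 tested called in p27-/- (3 at an unadjusted p under 0.05). All 7 had negative log2 fold changes in both mutants against WT, with medians of -0.61 in p27-/- and -0.75 in p27-/-;Sox2+/-. The part of this tissue in the Ndrg1 difference was not tested.

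Ddit4 (chromosome 10, 59949675 to 59951770), an inhibitor of mTORC1 signalling induced by hypoxia, glucocorticoids and other stress, had values of 7.68, 6.96, 6.32 and 7.24 in WT, 7.73, 7.60 and 7.52 in p27-/- and 7.73, 7.66 and 7.18 in p27-/-;Sox2+/- samples. The WT samples spread over more than a log2 unit, and WT replicate 1 lay at the level of the mutants. Its SD in WT, 0.57, was the largest of the 10 genes in any genotype. Both mutants had positive estimates, 0.57 on the log2 scale in p27-/- (interval 0.06 to 1.08, limma adjusted p = 0.164) and 0.47 in p27-/-;Sox2+/- (-0.04 to 0.99, adjusted p = 0.321). Without WT replicate 1 the change in p27-/- was 0.78 and passed the threshold (adjusted p = 0.0303). The summed level of 7 immediate early genes was highest among WT in replicate 1 (9.996) and between 9.05 and 9.47 in the others, the lowest being replicate 4, which had the second highest Ddit4 of WT. It lay between 9.49 and 9.81 in p27-/- and between 9.19 and 10.1 in p27-/-;Sox2+/- samples. That of 6 glucocorticoid-induced genes lay between 9.64 and 9.69 in WT, between 9.37 and 9.67 in p27-/- and between 9.71 and 9.89 in p27-/-;Sox2+/- samples. Of these lists none was called in p27-/- or p27-/-;Sox2+/- against WT in limma (1 or 2 genes each at an unadjusted p under 0.05). All 6 glucocorticoid-induced genes had positive log2 fold changes in p27-/-;Sox2+/- against WT, while in p27-/- 2 were positive and 4 negative. Of 8 genes of the integrated stress response, Atf4, its effector transcription factor, was higher in p27-/- (0.32, limma adjusted p = 0.036). The other 7, targets of that factor, were not called. The part of these responses in the Ddit4 values was not tested.

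Adm (ENSMUSG00000030790, chromosome 7, 110627657 to 110629820), which encodes the vasodilator peptide adrenomedullin, had values of 4.16, 3.69, 4.28 and 4.21 in WT, 3.77, 3.63 and 3.99 in p27-/- and 3.57, 3.53 and 3.62 in p27-/-;Sox2+/- samples. The p27-/-;Sox2+/- samples lay below all samples of the other genotypes, in a range of 0.1 log2 units, and WT replicate 2 lay among the p27-/- samples. Relative to WT, the estimate in p27-/-;Sox2+/- was -0.51 on the log2 scale (standard error 0.13, interval -0.79 to -0.23, limma adjusted p = 0.0531), just outside the threshold, and p27-/- one of -0.29 (-0.57 to -0.01, adjusted p = 0.19). Without WT replicate 2 both passed, at -0.64 (adjusted p = 0.00558) and -0.42 (adjusted p = 0.022), and with array weights the p27-/-;Sox2+/- change passed (adjusted p = 0.0234). Between the mutants the log2 difference was -0.22 (-0.52 to 0.08, adjusted p = 0.91). Adm lies close to the filter of 3.32.

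Car9 (chromosome 4, 43507026 to 43513729) lay between 0.47 and 0.53 in all 10 samples, below the filter of 3.32. Its genotypes overlapped, and in a fit without the filter its log2 fold changes were -0.01 in p27-/- (limma adjusted p = 0.896) and, for p27-/-;Sox2+/-, 0.02 (adjusted p = 0.812). At this level the table cannot show a change.

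**Figure D4:**
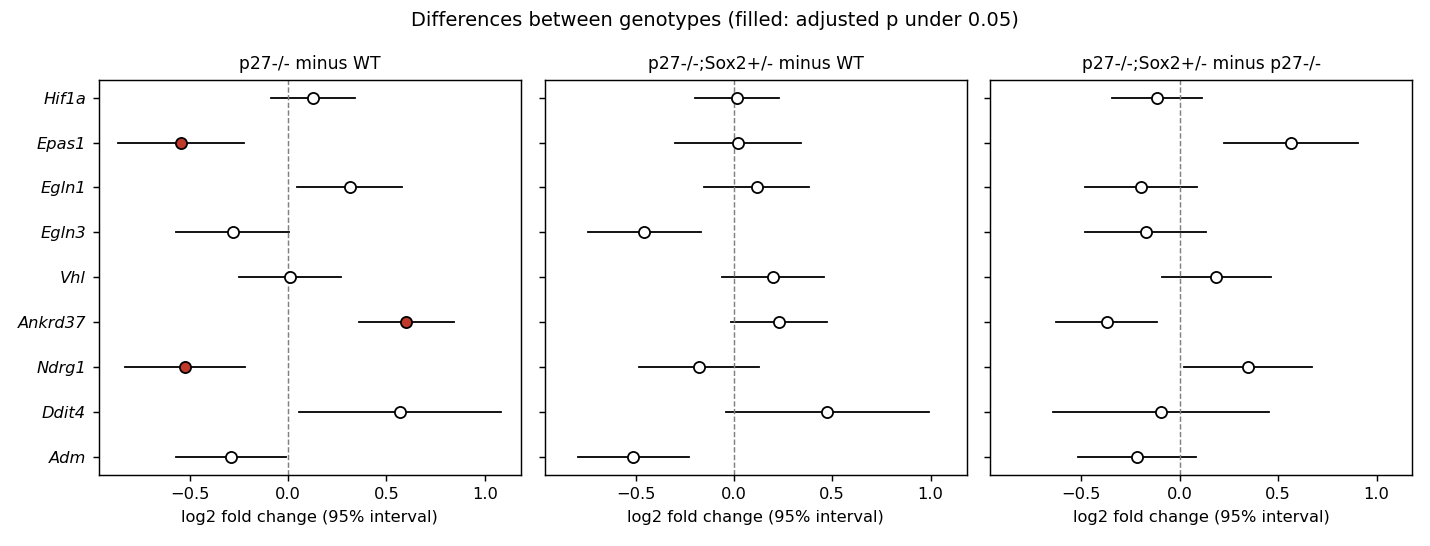
Log2 fold changes (horizontal axis) of the 9 tested HIF genes with 95% intervals, for each mutant relative to WT and for p27-/-;Sox2+/- relative to p27-/-, filled where the adjusted p is under 0.05. The filled points are Epas1, Ankrd37 and Ndrg1 in p27-/- against WT, and no point is filled in the other comparisons.

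By overlap of the samples, 3 of the 10 genes had groups that did not overlap in p27-/- against WT (1 higher and 2 lower, the 3 called genes), 3 in p27-/-;Sox2+/- against WT (Ankrd37 higher, Egln3 and Adm lower) and 5 between the mutants (Epas1, Vhl and Ndrg1 higher in p27-/-;Sox2+/-, Ankrd37 and Adm lower). Among all tested genes the shares were 20.6% (10.2% higher and 10.3% lower) in p27-/-, 15.0% (7.02% and 8.01%) in p27-/-;Sox2+/- and 15.3% (7.51% and 7.75%) between the mutants. For Epas1, Ankrd37 and Ndrg1 the p27-/-;Sox2+/- mean lay on the WT side of the p27-/- mean, and for Adm and Egln3 it lay further from WT than the p27-/- mean, but none of these differences between the mutants passed the threshold, and since both mutants share the WT samples these placements are descriptions.

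Of 15 other subunits, partners and regulators of the pathway, all tested, 1 was higher and 0 lower in p27-/- IL, beside 3.16% and 4.62% of all tested genes, so that the count was near the background. It was Siah1a, a ubiquitin ligase that acts on the prolyl hydroxylases (log2 fold change 0.40, limma adjusted p = 0.0426), and it was called in 3 of the 9 other settings and with 1 of the 10 samples left out. None passed in p27-/-;Sox2+/- against WT (3 at an unadjusted p under 0.05) or between the mutants (2). In p27-/- the partner genes Arnt and Arnt2 had log2 fold changes of 0.14 (adjusted p = 0.559) and -0.21 (0.195), the third alpha subunit Hif3a -0.29 (0.336), the hydroxylase gene Egln2 -0.32 (0.118), Hif1an, which encodes the asparaginyl hydroxylase FIH, 0.07 (0.77) and Cited2, a competitor for the coactivator of HIF, 0.24 (0.353). All p27-/- samples had less Egln2 than all WT samples. The median was 0.04 in p27-/-, 0.05 in p27-/-;Sox2+/- and -0.0022 between the mutants.

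Of 37 other non-glycolytic HIF targets, 35 were tested, and in p27-/- IL 4 were higher and 1 lower, beside 3.16% and 4.62% of all tested genes. Bnip3, a mitophagy receptor, rose by 0.53 (limma adjusted p = 0.023), the histone demethylase gene Kdm3a by 0.43 (adjusted p = 0.0106), P4ha1, a collagen prolyl hydroxylase subunit, by 0.50 (adjusted p = 0.0214) and the transferrin receptor gene Tfrc by 0.73 (adjusted p = 0.000865). Flt1, a receptor of vascular endothelial growth factor A that is expressed in endothelium, had a log2 fold change of -0.75 (adjusted p = 0.029). Vegfa itself had values from 7.55 to 8.25 in WT and from 7.58 to 8.27 in p27-/- samples and a log2 fold change of 0.05 (adjusted p = 0.903). In p27-/-;Sox2+/- IL, where 0.828% of all tested genes were higher and 1.88% lower, Tfrc was higher (0.49, adjusted p = 0.0177) and Flt1 lower (-0.80, adjusted p = 0.0379), and 0 were called between the mutants (6 at an unadjusted p under 0.05), with P4ha1 at -0.60 (adjusted p = 0.105) and Vegfa at -0.42 (adjusted p = 0.743). The medians in these comparisons were 0.04, -0.0011 and -0.06. Tfrc kept its call in p27-/- in every setting and with each sample left out.

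Of 19 glycolytic HIF targets, 5 were higher in p27-/- IL (Pfkp, Tpi1, Gapdh, Pgk1 and Ldha), with log2 fold changes from 0.42 to 0.74, and 0 were lower, beside the same 3.16% and 4.62%, with a median of 0.19. Of these calls, that of Ldha held in all 9 other settings and with each of the 10 samples left out. The others held in 9 settings and 8 such fits for Pfkp, 8 and 7 for Tpi1, 7 and 6 for Pgk1 and 5 and 3 for Gapdh. Slc2a1, the glucose transporter gene, had a log2 fold change of -0.06 (limma adjusted p = 0.802) and Pdk1, a pyruvate dehydrogenase kinase gene, 0.18 (0.257). Pfkfb3 was lower in p27-/-;Sox2+/- IL (-0.59, adjusted p = 0.0171) and the median was -0.02. Between the mutants the median was -0.26, with 0 called and 9 at an unadjusted p under 0.05. The 10 HIF genes described here had a median of 0.01 in p27-/- over the 9 tested, with estimates from -0.55 to 0.60, and 5 of the 9 were positive. The difference between the lists was not tested.

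**Figure D5:**
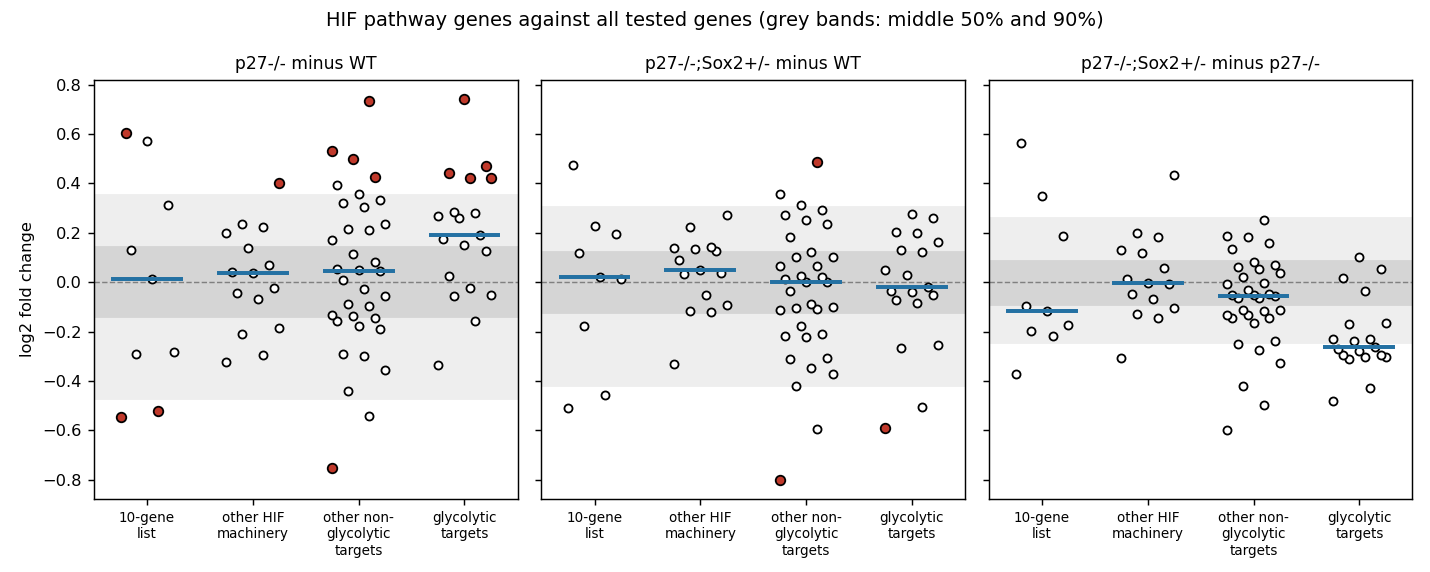
Log2 fold changes (vertical axis) of the 10-gene list (9 tested), 15 other HIF machinery genes, 35 other non-glycolytic targets and 19 glycolytic targets in each comparison, with called genes filled red, medians as blue lines and the middle 50% and 90% of all tested genes as grey bands. In p27-/- against WT the called genes of the 10-gene list lie on both sides of 0, and the median of the glycolytic targets lies at 0.19.

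The remaining marker lists give the composition beside these values. In p27-/- IL 7.78% of all tested genes were called. Of 8 melanotroph markers Pcsk2 and Oacyl were higher in p27-/-, and of 7 tested stem cell markers Cdh1 was lower in p27-/-. Of 5 anterior lobe marker genes Fshb was lower in both mutants. The summed level of these 5 genes, on the log2 scale, ran from 13.1 to 17.7 in WT and from 12.5 to 16.5 in p27-/- samples. In p27-/-;Sox2+/- samples it ran from 13.1 to 14.6. The highest were WT replicate 2 (17.7) and p27-/- replicate 1 (16.5). The part of anterior lobe tissue in the differences of the HIF genes was not tested. None of 7 macrophage or 3 red blood cell markers was called in p27-/- against WT by limma (0 and 0 at an unadjusted p under 0.05) or in p27-/-;Sox2+/- against WT (1 and 1).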

How the data were processed

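Bulk RNA of IL was sequenced after cDNA amplification. Per the labels and methods, the authors aligned reads with STAR 2.5.2a, estimated counts per gene with RSEM on Ensembl GRCm38 without strand, normalized them with DESeq2 1.18.1 and deposited 1 table of log2 values. The transformation is not named in the sources used here. The values are not counts, so count tests were not used. The table does not give the depth reached in each sample, and the counting error is unknown.

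Genes were matched by Ensembl ID and RefSeq symbol. All 10 samples were fitted by genotype in R 4.3.3 with limma 3.58.1 (eBayes with a mean-variance trend). The 17268 genes with a mean of at least 3.32, log2 of 10, were tested, with Benjamini-Hochberg adjustment. Summed marker levels are log2 of the sum of linear values. The test was checked on simulated data. Upstream windows came from the RefSeq tables of GRCm38.p6. Figures were drawn with matplotlib 3.10.9 in Python 3.11.15.

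The 10 HIF genes and all gene lists were chosen with earlier results of these data known. Named genes are the 10, 12 further HIF genes fixed by name, those of the other HIF lists called in any comparison, the 3 genes most correlated with each called gene, the targeted genes and called markers. Alternatives were no filter, a mean of at least 50, fits of 2 genotypes, a fit with no trend, array weights, quantile normalization, median centring, Xist as a covariate for sex, a replicate block and each sample left out.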

Additional observations from a re-analysis of the deposited data

Results flagged for a closer look

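In WT, 45 values (named genes and summed marker levels) were examined for 1 sample far from the other 3 by Dixon's ratio, the gap to the nearest sample divided by the range, against its 95% critical value, which chance exceeds in about 5% of groups. It was exceeded in 3 cases, none of them 1 of the 10 HIF genes. The HIF target Bnip3 had 8.81 in WT replicate 2 against 8.38 to 8.43 in the others (ratio 0.884). The glycolytic target Gapdh had 10.9 in WT replicate 1 against 10.3 to 10.4 (ratio 0.844). Sox2 had 7.75 in WT replicate 3 against 7.34 to 7.39 (ratio 0.885). The groups of 3 samples were not examined.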

How the results depend on the processing

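The count of called HIF genes in p27-/- against WT was 3, and 1 without the filter or with the replicate block, 2 to 4 in the other settings, and 1 to 4 with a sample left out. In p27-/-;Sox2+/- against WT it was 0, and 1 (Adm) with array weights, and 0 to 1 with a sample left out. Between the mutants it was 0 throughout. Ankrd37 in p27-/- remained called in every setting. Of 14 calls among the other HIF genes, 2 (Tfrc and Ldha in p27-/-) held in every setting and with each sample left out, and 5 held in every setting with all samples.

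The shared replicate numbers gave no sign of pairing: deviations of samples with the same number correlated between -0.24 and 0.18 (9 pairs), and 1 of 9 samples correlated best with its own number. With so few samples a weak pairing is not excluded. Replicate number 4 occurs in WT alone, so that the replicate block also takes WT replicate 4 out of the comparison. In p27-/- against WT its log2 fold changes equal those without that sample, -0.51 for Epas1 and -0.49 for Ndrg1. The 2 fits are thus not separate checks. With the replicate block 1 HIF gene was called in p27-/- against WT (Ankrd37, adjusted p = 0.0327) and 595, 209 and 2 genes were called in all in the 3 comparisons, against 1343, 468 and 25. Array weights gave 1764, 1240 and 283, no filter 831, 312 and 6, and fits of the compared genotypes alone 807, 260 and 45. Without the trend 8 genes were called between the mutants, and with quantile normalization 15.

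Signs turned in the following estimates, none of which passed the threshold. With the replicate block Vhl in p27-/- was -0.070 and Slc2a1 in p27-/-;Sox2+/- 0.0033. In p27-/-;Sox2+/- against WT, Hif1a was -0.037 with array weights, -0.0082 with quantile normalization and -0.0092 with Xist as a covariate, Epas1 -0.10 with array weights and -0.0032 with quantile normalization, Arnt -0.0027 with array weights and Slc2a1 0.00095 with Xist. Between the mutants Slc2a1 was -0.049 with array weights. With a sample left out, estimates that took both signs ranged in p27-/- against WT from -0.070 to 0.097 for Vhl, from -0.14 to 0.21 for Vegfa and from -0.16 to 0.0015 for Slc2a1. In p27-/-;Sox2+/- against WT they ranged from -0.029 to 0.063 for Hif1a, from -0.14 to 0.14 for Epas1, from -0.073 to 0.12 for Arnt, from -0.016 to 0.26 for Hif3a, from -0.0068 to 0.19 for Cited2 and from -0.11 to 0.011 for Slc2a1. Between the mutants they ranged from -0.20 to 0.074 for Ddit4, from -0.022 to 0.14 for Hif1an, from -0.21 to 0.14 for Flt1 and from -0.039 to 0.12 for Slc2a1. The cause of these changes was not tested. Neither scaling moved the median of all genes by more than 0.018. Count tests and other pseudocounts were not run, since the values are on a log scale.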
